A study of Mus musculus with 6 samples.

Results

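The genes described here are 10 transcription factors of the AP-1 and immediate early class, found by symbol in a deposited table of 43346 genes. They are the Fos family (Fos, Fosb, Fosl1, Fosl2), the Jun family (Jun, Junb, Jund), the related factor Atf3, and the zinc finger factor Egr1 and the orphan nuclear receptor Nr4a1. All 10 were found. The libraries, 3 wild type and 3 Girk3-null (Girk3-/-), hold polyadenylated RNA of epiphyseal chondrocytes, the cartilage cells of growing bone ends, from 5-day-old C57BL/6 mice. Girk3, encoded by Kcnj9, is a subunit of potassium channels opened by G proteins. All animals are labelled male, the groups differ by genotype alone in the labels, and cells of both went through a short and then an overnight collagenase II digest before RNA was taken. The sources used here do not say how the Girk3 allele was made.

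AP-1 is a dimer of basic leucine zipper proteins. Fos proteins pair with Jun proteins, and Jun proteins can also pair with each other or with Atf3. Fos, Egr1 and Nr4a1 are textbook immediate early genes, switched on without new protein synthesis when growth factors, stretch, stress or calcium signals reach the nucleus through MAP kinases, serum response factor and CREB. In cartilage AP-1 is known for driving matrix metalloproteinases and for regulating chondrocyte proliferation and maturation. These transcripts are also known to respond to cell handling, and no sample taken before digestion was analysed here.

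Total counts were 34279516 to 60392837 per library. The deleted gene Kcnj9 had 0 counts in all 6 libraries, so it could not check the genotype labels, and that 0 sets a limit of 3 counts, 0.0497 to 0.0875 CPM (counts scaled to a common library size). Col2a1, the defining cartilage collagen, took 3.12% to 8.25% of all counts, and the 14 chondrocyte markers were all detected. Sex-linked counts set Girk3-null replicate 1 apart. It had 16088 counts over 4 Y-linked genes and 19 of Xist, while the other 5 libraries had 0 to 7 and 67346 to 144825. All 6 are labelled male, so only Girk3-null replicate 1 went with its label and the other 5 read as female. Differences of this library from the others cannot be told apart from a difference of sex. The genotype tests of the 10 genes, their spread and the medians of the gene lists are given with and without Girk3-null replicate 1. Levels are CPM scaled with TMM factors unless RPKM, the authors' value per kilobase of listed gene length, is named.

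Most of the members had a short gene span. Their median span was 6243 bases against 23287 for 14614 tested protein-coding genes, and 9 of 10 lay below that median. Atf3, at 47744 bases, was the exception, and Fosl2, at 21360 bases, was close to the median (longer than 47.2% of those genes). Jun and Jund had a single exon in every GENCODE M21 transcript, and Junb had a transcript with 1 exon. RefSeq promoter windows, 250 bases before to 50 after the listed start on build GRCm38.p6, were examined for 8 members, not Fosl1 or Egr1. These 8 windows had a median of 23 CG dinucleotides and 64.67% G or C, against 7 and 52.67% over 32851 promoters. The Jund window, with 3 CG dinucleotides, lies upstream of the Jund start in M21 (70698949 on chromosome 8). The Atf3 window surrounds a start inside the listed gene span.

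The windows of 4 genes are shown: Fos and Fosb had the widest spread between Girk3-null libraries, and Junb and Atf3 the largest positive and negative genotype differences. Capitals mark matches, on either strand, to GCGNGGGCG (an Egr1 type site), TATAAA (the core promoter element bound by TBP) or TGACGT (the core of CREB and ATF sites, contained in the full site TGACGTCA).
Fos, chr12:85473640-85473939, plus strand: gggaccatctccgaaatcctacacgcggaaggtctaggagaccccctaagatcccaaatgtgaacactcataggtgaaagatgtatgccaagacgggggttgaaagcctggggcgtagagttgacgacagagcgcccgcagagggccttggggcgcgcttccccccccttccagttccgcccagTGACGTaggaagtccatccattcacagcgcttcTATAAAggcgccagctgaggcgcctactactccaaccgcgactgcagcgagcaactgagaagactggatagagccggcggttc
Fosb, chr7:19309996-19310295, minus strand: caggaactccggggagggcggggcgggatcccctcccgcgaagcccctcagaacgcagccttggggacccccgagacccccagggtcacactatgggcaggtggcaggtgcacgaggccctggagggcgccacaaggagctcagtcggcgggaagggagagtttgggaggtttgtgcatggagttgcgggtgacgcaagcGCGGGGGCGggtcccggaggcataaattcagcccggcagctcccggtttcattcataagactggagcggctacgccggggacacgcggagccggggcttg
Junb, chr8:84978699-84978998, minus strand: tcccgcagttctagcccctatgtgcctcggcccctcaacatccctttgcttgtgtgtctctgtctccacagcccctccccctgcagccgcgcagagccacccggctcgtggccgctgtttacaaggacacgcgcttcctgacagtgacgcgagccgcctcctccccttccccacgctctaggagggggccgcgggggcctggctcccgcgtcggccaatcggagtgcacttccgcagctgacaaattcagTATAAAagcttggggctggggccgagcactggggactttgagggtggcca
Atf3, chr1:191183284-191183583, minus strand: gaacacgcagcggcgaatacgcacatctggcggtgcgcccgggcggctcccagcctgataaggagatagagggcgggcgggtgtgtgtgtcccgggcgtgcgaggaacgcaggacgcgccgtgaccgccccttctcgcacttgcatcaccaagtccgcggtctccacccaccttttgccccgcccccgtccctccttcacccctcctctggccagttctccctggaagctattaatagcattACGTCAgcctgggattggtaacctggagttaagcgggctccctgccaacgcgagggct
In Fos the TATAAA match began 33 bases and the TGACGT match 66 bases before the start. The Fosb match to GCGNGGGCG began 50 bases before it, and the Atf3 match to TGACGT lay on the other strand 8 bases before it. The Junb TATAAA match began at the listed start itself. GCGNGGGCG was found in 3 of the 8 member windows and in 5.55% of all windows, TATAAA in 2 and 13.6%, and TGACGT in 2 and 7.51%. No member window held TGANTCA, a pattern that covers the AP-1 site (7.81% of all windows), or TGACGTCA (1.79%). A CArG box, the site of serum response factor (1.63%), was not found in them either. This absence covers only these exact patterns in these windows. Sites farther from the start were not looked for, and Fosl1 and Egr1 were not examined. The Jun window holds TGACATCA, which is close to TGACGTCA but not counted as a match. All matches given here are letter matches in short windows and were not tested against any binding.

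All 10 genes were well expressed, with 602 to 19921 counts per library, and together they took 0.0798% to 0.147% of all counts. Per kilobase, Egr1 stood highest in wild type libraries at 58.5 ± 20.9 RPKM (mean ± SD, n = 3). Fos followed at 52.3 ± 9.55, Fosl2 at 50.4 ± 4.89, Jun at 48.4 ± 2.36, Atf3 at 45.0 ± 12.7, Nr4a1 at 41.1 ± 9.31 and Junb at 40.2 ± 12.1 RPKM (mean ± SD, n = 3 each). Neighbours among these 7 did not differ beyond their spread. Fosl1 (22.8 ± 0.595), Fosb (7.84 ± 2.53) and Jund (5.22 ± 0.951 RPKM) stood lower, and each Fosl1 value in wild type was below every value of the 7. In the Girk3-null libraries the same gene led, Egr1 at 72.7 ± 32.8 RPKM, then Fos at 59.8 ± 30.6 and Junb at 59.4 ± 23.1, with Jund last at 7.29 ± 2.56. Listed lengths bear on this order. The table gives Jund 2878 bases where M21 gives 1668, and Fosl2 5855 where M21 gives 9680. With M21 lengths Jund averaged 10.8 RPKM over 6 libraries and passed Fosb (5.23), and Fosl2 moved from rank 3 (49.9) to rank 6 (30.2). Only the length was changed in these values, and reads were not recounted over M21 exons.

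Fos (ENSMUSG00000021250; chromosome 12, 85473890 to 85477273, mm10), the prototype immediate early gene, measured 126, 90.1 and 142 CPM in the wild type libraries, here and later in replicate order 1, 2, 3. Its levels in the Girk3-null libraries were 59.9, 199.8 and 181 CPM. The Girk3-null values lay on both sides of all wild type values, so the groups overlapped. The log2 fold change, Girk3-null over wild type, was 0.30 with a standard error of 0.39 and a 95% interval of -0.58 to 1.18 (edgeR quasi-likelihood test, adjusted p = 0.730). That interval runs from 0.667-fold to 2.27-fold.

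Fosb (ENSMUSG00000003545; chromosome 7, 19302721 to 19310045), a close relative of Fos, measured 30.5, 17.4 and 38.1 CPM in wild type and 10.2, 45.9 and 56.7 CPM in Girk3-null libraries. It had the widest range of the 10 genes, 5.55-fold between Girk3-null replicates 1 and 3. The log2 fold change of Fosb was 0.39 with a standard error of 0.53 (interval -0.83 to 1.61, adjusted p = 0.745 in edgeR). Again Girk3-null libraries held both the lowest and the highest values.

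The Fos-related antigens Fosl1 and Fosl2, which lack the strong activation domain of Fos, varied less. Fosl1 (ENSMUSG00000024912; chromosome 19, 5447703 to 5455945) measured 36.2, 35.4 and 41.4 CPM in wild type and 25.6, 28.7 and 44.9 CPM in Girk3-null libraries. Of its Girk3-null values 2 were below all wild type values and the last was above them. Its log2 fold change was -0.19 with a standard error of 0.20 (interval -0.65 to 0.27, adjusted p = 0.668 in edgeR). Fosl2 (ENSMUSG00000029135; chromosome 5, 32136472 to 32157831), which is known for roles in skeletal development, had the narrowest range of the 10. It measured 288, 243.1 and 326 CPM in wild type and 286, 299.5 and 316 CPM in Girk3-null libraries. All 3 Girk3-null values lay inside the wild type range, with a log2 fold change of 0.07, a standard error of 0.13 and an interval of -0.22 to 0.37 (adjusted p = 0.802 in edgeR).

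Among the Jun family, Jun (ENSMUSG00000052684; chromosome 4, 95049034 to 95052222), the main transactivating partner of Fos, measured 137, 144 and 166 CPM in wild type and 84.9, 131 and 188 CPM in Girk3-null libraries. The wild type libraries were close together and the Girk3-null libraries spread to both sides. For Jun the log2 fold change was -0.15 with a standard error of 0.25 (interval -0.72 to 0.41, adjusted p = 0.785 in edgeR). The antisense gene Junos overlaps Jun, with 1877 counts against 37905, and reads of the 2 cannot be told apart if counting ignored strand.

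Junb and Jund, partners that activate less strongly than Jun on many promoters, had the largest positive fold changes of the 10. Junb (ENSMUSG00000052837; chromosome 8, 84976909 to 84978748) measured 74.5, 46.0 and 96.1 CPM in wild type and 75.7, 99.99 and 167 CPM in Girk3-null libraries. Girk3-null replicates 2 and 3 were above all wild type values and replicate 1 lay among them. The log2 fold change was 0.66 with a standard error of 0.33 (interval -0.08 to 1.41, adjusted p = 0.371 in edgeR). Jund (ENSMUSG00000071076; chromosome 8, 70697739 to 70700616) measured 16.1, 11.1 and 16.5 CPM in wild type and 16.5, 17.8 and 31.5 CPM in Girk3-null libraries. Girk3-null replicate 3 alone was far from the rest. For Jund the log2 fold change was 0.59 with a standard error of 0.27 (interval -0.02 to 1.197, adjusted p = 0.351 in edgeR). Gm11175, with 29 counts, lies within Jund on the opposite strand, which makes reads in that stretch uncertain.

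Atf3 (ENSMUSG00000026628; chromosome 1, 191170296 to 191218039), a stress-induced partner of Jun proteins, ran the other way. It measured 95.7, 112 and 69.6 CPM in wild type and 32.8, 67.1 and 81.1 CPM in Girk3-null libraries. Girk3-null replicates 1 and 2 were below all wild type values, and replicate 3 was above wild type replicate 3. The log2 fold change was -0.62 with a standard error of 0.31 (interval -1.32 to 0.08, adjusted p = 0.372 in edgeR).

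Egr1 (ENSMUSG00000038418; chromosome 18, 34859823 to 34864984), the serum and ERK responsive zinc finger factor, measured 240.1, 159 and 370.3 CPM in wild type and 164, 457 and 399 CPM in Girk3-null libraries. Wild type replicate 2 and Girk3-null replicate 1 were low together, and the groups overlapped. Its log2 fold change was 0.41 with a standard error of 0.39 (interval -0.49 to 1.31, adjusted p = 0.632 in edgeR). Nr4a1 (ENSMUSG00000023034; chromosome 15, 101266846 to 101274792), also called Nur77, measured 119, 88.8 and 84.7 CPM in wild type and 57.0, 100.3 and 109 CPM in Girk3-null libraries. Apart from the low replicate 1, its Girk3-null values lay inside the wild type range. The log2 fold change was -0.14 with a standard error of 0.24 (interval -0.68 to 0.41, adjusted p = 0.804 in edgeR).

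**Figure D1:**
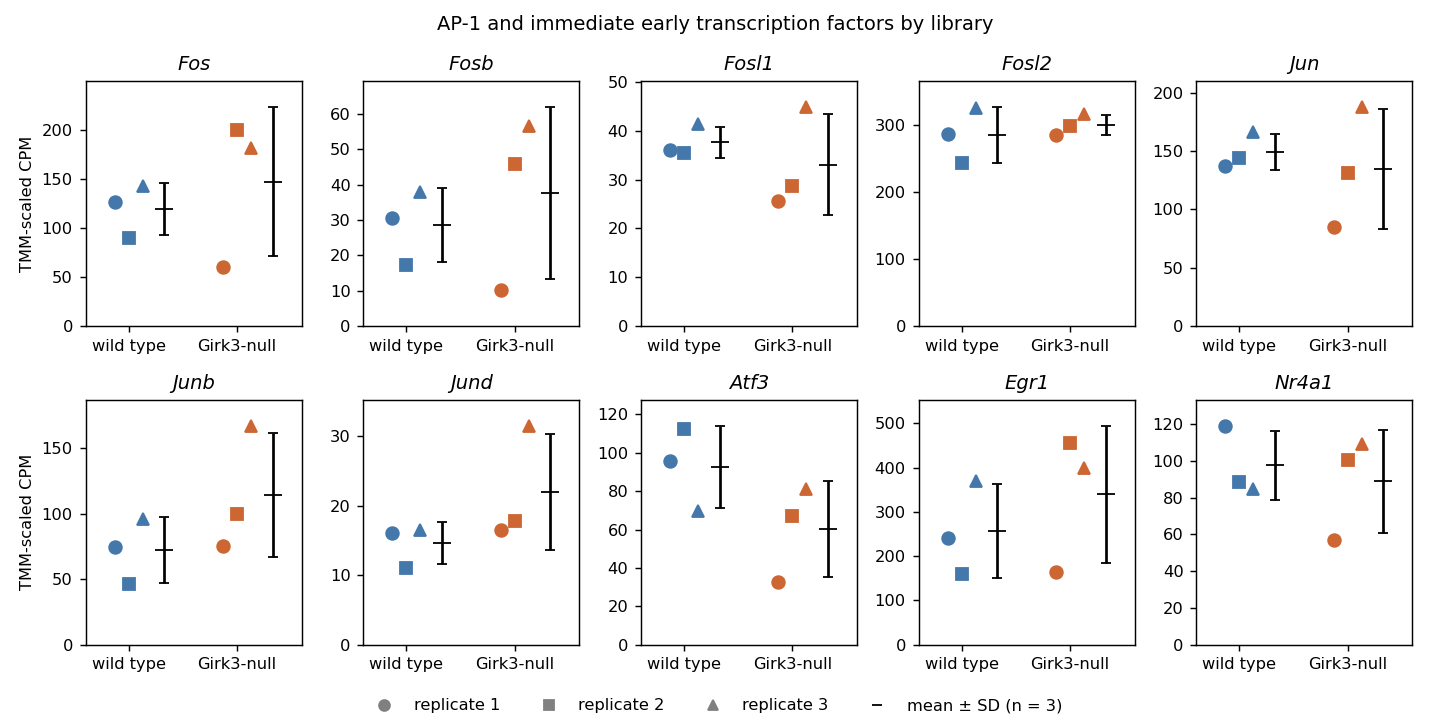
TMM-scaled CPM of the 10 genes in each library, with marker shape giving the replicate and black bars the mean ± SD of 3 libraries. Girk3-null replicate 1 (orange circle) is the lowest of the 6 libraries for 6 genes, and Girk3-null replicate 3 (orange triangle) is the highest for 5.

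None of the 10 members passed the genotype test. At an adjusted p of 0.05 edgeR called 0 of 10 members and 0.00570% of 17554 genes tested (1 gene). At an unadjusted p under 0.05 it called 0 of 10, against 14.5% of all genes (7.49% higher and 7.02% lower). DESeq2 called 0 of 10 members and 2.24% of the 15171 genes it gave an adjusted p, and limma-voom called 0. Groups overlapped for all 10 members, while 20.0% of all genes tested had groups that did not (9.86% higher and 10.2% lower). For Jund the overlap was narrow, with Girk3-null replicate 1 at 16.4695 CPM and wild type replicate 3 at 16.471. Of the 10 fold changes 6 were positive and 4 negative, with a median of 0.19 against 0.01 over all genes. The intervals of Fos, Fosb, Junb, Jund and Egr1 all reach past a 2-fold increase and that of Atf3 reaches down to 0.400-fold, so these data do not show that their levels were alike in the genotypes.

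The 3 libraries of one genotype were spread widely for several of these genes. The genes compared here are the 12867 tested genes whose log2 CPM averaged 1 or more. Among them the median SD of log2 CPM was 0.18 in Girk3-null and 0.15 in wild type libraries. Fosb had an SD of 1.35 among Girk3-null libraries, larger than for 99.7% of these genes, and Fos one of 0.96, larger than for 98.9%. Egr1 (0.80), Atf3 (0.69), Junb (0.58) and Jun (0.57) lay above 94.8% or more of the genes. In wild type libraries the order differed, with Egr1 at 0.61 (97.1%), Fosb at 0.58 (96.7%) and Junb at 0.54 (95.9%), while Jun at 0.14 lay below the median. Fosl2 was the exception in the Girk3-null group, at 0.07 and larger than only 13.7% of genes. Much of the Girk3-null spread of Fos, Fosb and Egr1 rested on replicate 1. Over replicates 2 and 3 alone, an alternative chosen after seeing the data, the SD of Fos was 0.10 (larger than for 43.9% of genes), that of Egr1 0.14 (56.4%) and that of Atf3 0.19 (70.4%). Fosb was then at 0.21 (74.4%), and the median gene at 0.12. Jund (0.58, 97.2%), Junb (0.53, 96.3%), Fosl1 (0.45, 94.6%) and Jun (0.37, 90.7%) stayed widely spread between those 2 libraries.

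Girk3-null replicate 1 was lowest for 6 of 10 members, where it was lowest for 25.6% of the 12867 genes. Wild type replicate 2 was lowest for the other 4 (Fosl2, Junb, Jund and Egr1), against 24.1% of genes. Girk3-null replicate 3 was highest for 5 members, against 14.5% of genes. Girk3-null replicate 1 was also below the 6-library median for 10 of 10 members, and Girk3-null replicate 3 above it for all 10. For Jund, Girk3-null replicate 1 was below it narrowly (16.4695 CPM, beside 16.471 in wild type replicate 3). The share of all genes on those sides of the median was not counted, so these counts cannot be read as particular to the members. Girk3-null replicate 1 was also the highest library for 31.15% of the 12867 genes, and for 0 members. Averaged over the 10 members, centred log2 CPM was -0.65 in Girk3-null replicate 1 and -0.31 in wild type replicate 2. The remaining wild type libraries averaged 0.05 (replicate 1) and 0.17 (replicate 3), and the remaining Girk3-null libraries 0.21 (replicate 2) and 0.53 (replicate 3).

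**Figure D2:**
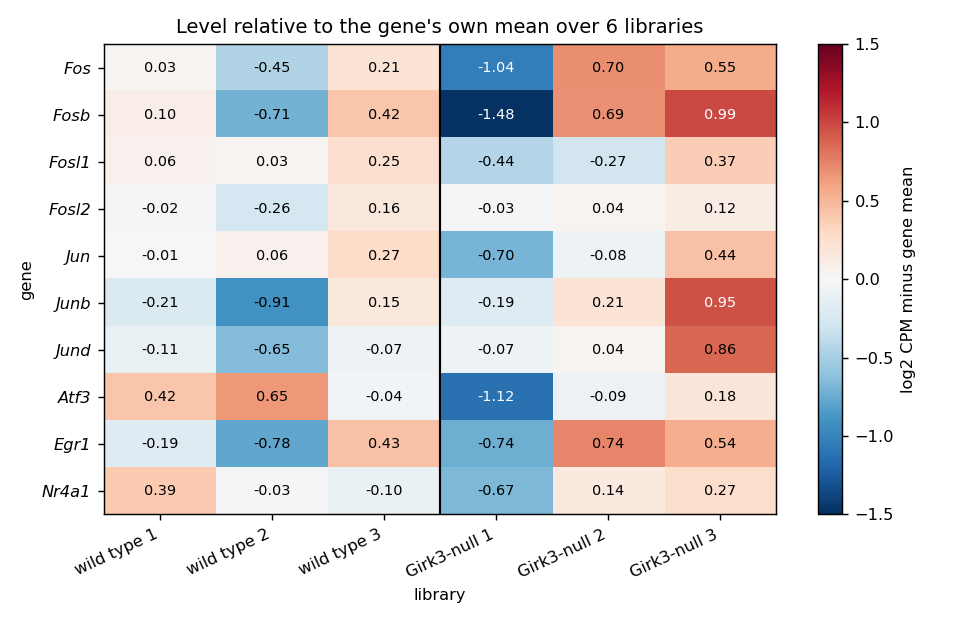
Log2 CPM of each gene minus its own mean over the 6 libraries, with the vertical line parting wild type from Girk3-null libraries. The Girk3-null replicate 1 column is below 0 for every gene, from -1.48 for Fosb to -0.03 for Fosl2, and Atf3 is the one gene at its highest in wild type replicate 2.

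The 10 profiles were not one pattern. The likeness of 2 genes was measured as the root mean square difference of their centred log2 CPM over 6 libraries. Among members the closest pairs were Fosl1 with Jun (0.14), Junb with Jund (0.18) and Fos with Egr1 (0.23), and the farthest were Junb and Atf3 (0.86). Among the 12866 other genes at that level, the closest to Fos were H2-Aa (0.14), Mall (0.18), Cd74 (0.21), Tnni2 (0.23) and Egr1 (0.23), where the median gene was at 0.63. H2-Aa, an MHC class II chain, measured 3.07, 2.43 and 4.54 CPM in wild type and 1.72, 4.88 and 4.99 CPM in Girk3-null libraries. Closest to Egr1 were H2-Eb1 (0.15), H2-Aa (0.18), RP23-296I6.7 (0.21), Pim2 (0.22) and Cspg4 (0.22). Jun was nearest to Rnd1 (0.05), Fam134b (0.06), Cxcl2 (0.08), Cxadr (0.09) and Smad7 (0.09). Atf3 was nearest to Gm14253 (0.08), Gm26945 (0.08), Rel (0.09), Penk (0.10) and Neurl3 (0.10). Penk, the enkephalin precursor, measured 294, 356 and 215 CPM in wild type and 102, 228 and 220.5 CPM in Girk3-null libraries, with the same low and high libraries as Atf3.

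Leaving out Girk3-null replicate 1 moved every fold change upward. Fos then had a log2 fold change of 0.67 (interval 0.25 to 1.10), Fosb 0.84 (0.17 to 1.51), Junb 0.89 (0.17 to 1.62), Jund 0.76 (0.14 to 1.38) and Egr1 0.74 (0.04 to 1.44). Each of these 5 had an unadjusted p under 0.05 and an adjusted p of 0.512 in edgeR with 3 wild type and 2 Girk3-null libraries. In that fit 0 of 10 members and 0 of 17980 genes passed an adjusted p of 0.05. At an unadjusted p under 0.05, 9.70% of genes differed and 4.93% were higher. Jun changed sign to 0.09 and Nr4a1 to 0.10, Fosl1 went to -0.03, Fosl2 to 0.11 and Atf3 to -0.32. The median over the 10 went from 0.19 to 0.39, beside 0.00 over all genes. All libraries left in that fit read as female by their Y-linked and Xist counts. Both Girk3-null libraries left in that fit have a number above 200 in their titles, and 2 of the 3 wild type libraries one below 200. With a term for that number and all 6 libraries, Fos was at -0.21, Fosb at -0.39 and Egr1 at -0.04, while Junb (0.40) and Jund (0.43) remained positive.

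**Figure D3:**
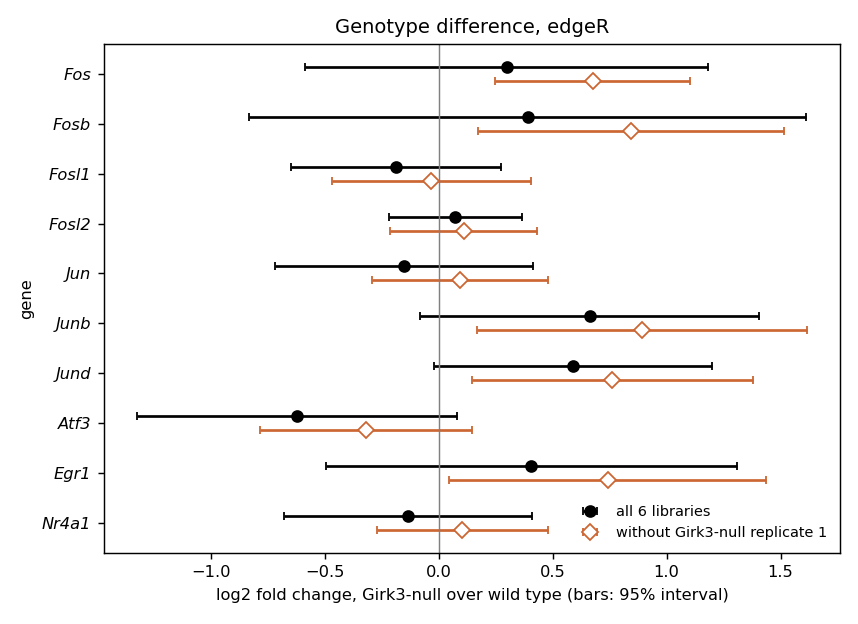
Log2 fold change of each gene, Girk3-null over wild type, with 95% intervals from edgeR, for all 6 libraries (filled) and without Girk3-null replicate 1 (open). With all libraries every interval includes 0, and without that library those of Fos, Fosb, Junb, Jund and Egr1 lie above it, in a comparison where both Girk3-null libraries have title numbers above 200.

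Some of these genes also separated by the number in the library titles, without passing an adjusted test. The labels do not say what it stands for. Numbers below 200 belong to 1 Girk3-null library (replicate 1) and to 2 of wild type (replicates 1 and 2), and those above 200 to the other 3. The 3 libraries above 200 were higher than the 3 below 200, with no overlap, for 6 of 10 members (Fos, Fosb, Fosl2, Junb, Jund, Egr1) and for 6.35% of all genes tested. For Jund the nearest libraries of the 2 sets both read 16.5 CPM. In deposited RPKM the 2 sets overlapped for Jund, with wild type replicate 1 (below 200) at 5.97 and wild type replicate 3 (above 200) at 5.55. They also overlapped for Fosl2, with wild type replicate 1 at 52.4 and Girk3-null replicate 2 (above 200) at 49.7 RPKM. In an edgeR fit with both terms, the title number term for Egr1 was 1.14 on the log2 scale (standard error 0.20, unadjusted p = 0.000562, adjusted p = 0.367). It was 1.03 for Fos, 1.49 for Fosb, 0.75 for Junb and 0.57 for Jun, the other members with an unadjusted p under 0.05, against 3.89% of genes higher above 200. Adjusted over all genes, the term passed for 0 of 10 members and for 0 genes. This term was examined after the values had been seen.

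Within each set of title numbers the genotype difference kept one sign for 4 members and changed it for 6. In log2 CPM, Girk3-null minus wild type, Fos was -0.83 below 200 and 0.42 above, Fosb -1.17 and 0.42, and Egr1 -0.25 and 0.20. Atf3 was -1.66 below 200 and 0.08 above, and Nr4a1 -0.85 and 0.31. Junb was 0.37 and 0.43 and Jund 0.30 and 0.52, positive in both sets. Jun (-0.73 and -0.09) and Fosl1 (-0.48 and -0.20) were negative in both, and Fosl2 (0.11 and -0.08) was near 0. Each set holds 1 library of one genotype and 2 of the other, so these differences have no test.

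**Figure D4:**
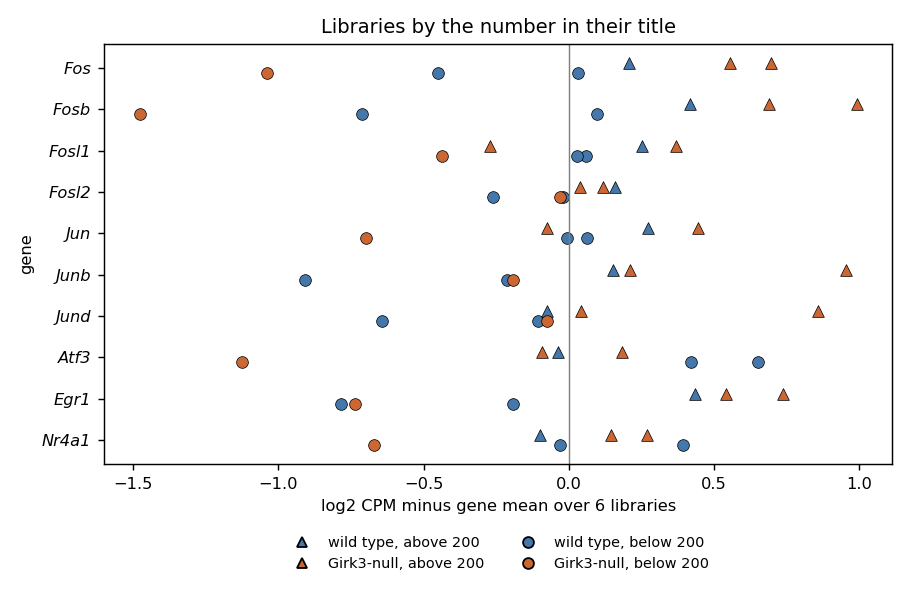
Log2 CPM minus the gene's mean over 6 libraries, with triangles for title numbers above 200, circles for those below, blue for wild type and orange for Girk3-null. For Egr1 all triangles lie at 0.43 or above and all circles at -0.19 or below, while for Atf3 both sets are mixed.

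Summed over its 4 genes, the Fos family measured 141, 114 and 146 RPKM in wild type and 90.2, 160.6 and 161 RPKM in Girk3-null libraries. The Jun family summed to 95.04, 79.9 and 107 RPKM in wild type and 72.1, 98.7 and 150.3 RPKM in Girk3-null libraries. Both families were lowest in Girk3-null replicate 1. The ratio of Fos to Jun family RPKM was 1.42 ± 0.0572 in wild type and 1.32 ± 0.283 in Girk3-null libraries (mean ± SD, n = 3 each), a difference smaller than the Girk3-null spread. Without Girk3-null replicate 1 the latter was 1.35. With M21 lengths it was 1.19 and 1.13.

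The make-up of each family varied with the library. Fos gave 40.6%, 36.4% and 40.2% of Fos family RPKM in wild type and 27.7%, 51.4% and 44.6% in Girk3-null libraries. Fosl2 reached its largest share, 53.0%, in Girk3-null replicate 1 and ran from 31.0% to 39.5% elsewhere. Junb gave 45.4%, 33.8% and 47.4% of Jun family RPKM in wild type and 56.0%, 53.5% and 56.6% in Girk3-null libraries. All 3 Girk3-null shares exceeded all 3 wild type shares. Jun gave 48.3%, 61.0% and 47.4% in wild type and 36.2%, 40.4% and 36.6% in Girk3-null libraries, also without overlap between genotypes. The Junb and Jun shares are parts of 1 total in which Jund held 5.20% to 7.79%, so they are not separate observations. With 3 libraries a group the smallest two-sided exact permutation p is 0.1, and the shares were noticed in these data and not tested.

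**Figure D5:**
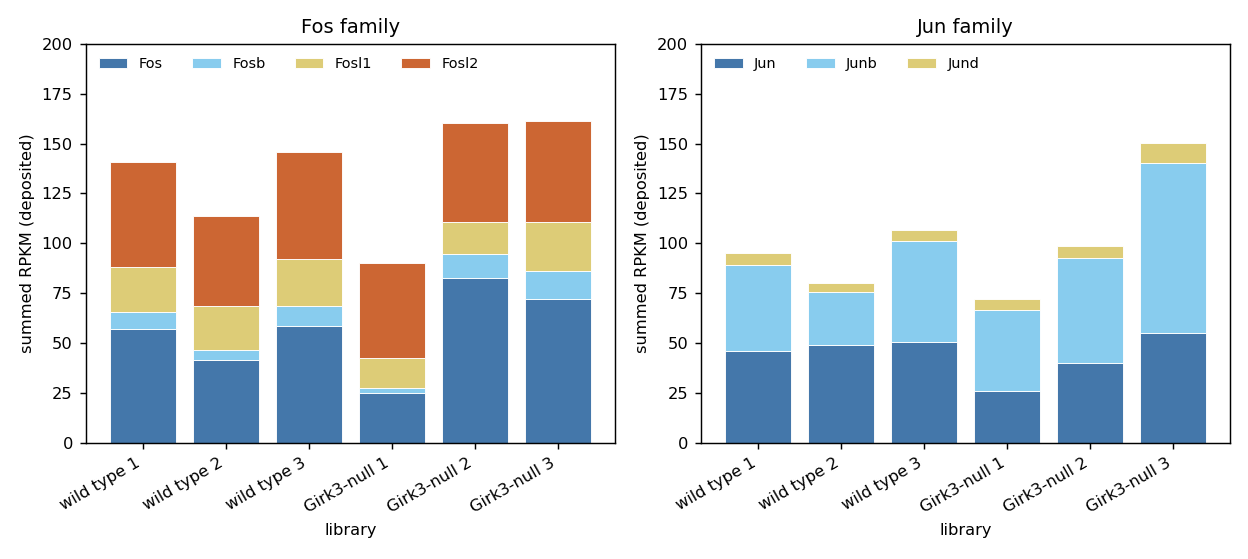
Deposited RPKM summed over the Fos family (left) and the Jun family (right) in each library, with segments for the genes. The Fos family bar is 90.2 for Girk3-null replicate 1 and about 161 for replicates 2 and 3. The Junb segment exceeds the Jun segment in all 3 Girk3-null libraries, and the 2 are about equal in wild type replicate 3 (47.4% each).

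The other genes of the pathway were read from 6 lists, and edgeR called 0 of their tested genes at an adjusted p of 0.05. Among 11 tested AP-1 related zipper factors, 2 were higher and 0 lower at an unadjusted p under 0.05, where 7.49% of all genes were higher and 7.02% lower, shares that hold for each list. Their median log2 fold change was 0.02, and 0.05 without Girk3-null replicate 1. Batf3, a partner of Jun proteins in immune cells, measured 2.86 ± 0.687 CPM in wild type and 5.01 ± 0.122 CPM in Girk3-null libraries (mean ± SD, n = 3 each). Its log2 fold change was 0.81 (edgeR adjusted p = 0.291). DESeq2 called it (adjusted p = 0.0416), the one call it made in the 6 lists. Maff and Batf had log2 fold changes of -0.29 and 0.40.

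Of 13 other immediate early transcription factors, 11 had negative fold changes, with a median of -0.18, and 2 were lower and 0 higher at an unadjusted p under 0.05. Without Girk3-null replicate 1 the median was 0.05. Klf10 (-0.46) and Klf6 (-0.40), both Krüppel-like factors, had the smallest p-values with adjusted p of 0.291 and 0.332 in edgeR. Ier2 was positive (0.64) and Nr4a3, a relative of Nr4a1, negative (-0.43). Of 25 immediate early genes of other kinds, 4 were lower and 0 higher at an unadjusted p under 0.05, with a median of -0.09 that went to -0.0047 without Girk3-null replicate 1. They were Il6, a cytokine (-0.57), Mcl1, a survival factor (-0.26), Errfi1, a feedback inhibitor of EGF receptors (-0.48), and Lif (-0.31).

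Among 23 upstream kinases and activators 1 was higher and 3 lower at an unadjusted p under 0.05, with a median of 0.07 that changed sign to -0.01 without Girk3-null replicate 1. Rps6ka3 (-0.41), a kinase below ERK, Map2k4 (-0.39), a kinase that activates JNK, and Mapk8 (-0.32), which encodes JNK1, were negative, and Map2k2 (0.44) was positive. Known AP-1 target genes had a median of -0.30, with 4 of 15 lower and 0 higher at an unadjusted p under 0.05, against 7.02% of all genes lower. Timp1, an inhibitor of metalloproteinases, measured 1079 ± 90.3 CPM in wild type and 838 ± 49.1 CPM in Girk3-null libraries (mean ± SD, n = 3 each). Its log2 fold change was -0.36 (edgeR adjusted p = 0.292). Gja1, a gap junction protein, was at -0.34, and Il6 and Lif stand in this list too. Without Girk3-null replicate 1 the median was -0.16. The collagenase Mmp13 and the stromelysin Mmp3 had positive values of 0.37 and 0.35 that did not pass (adjusted p = 0.447 and 0.593 in edgeR). Mmp13 was at 2990 CPM in Girk3-null replicate 1, and replicates 2 and 3 (1815 and 1984) lay inside the wild type range. Spp1 had the largest positive value of the list, 0.55 (adjusted p = 0.444 in edgeR). It measured 20951 CPM in Girk3-null replicate 1, and 9029 and 9581 in replicates 2 and 3.

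Markers of other cell types that the digest could hold also varied between the libraries. The 10 endothelial markers, all detected, summed to 123 to 207 CPM in wild type and 29.4 to 99.6 CPM in Girk3-null libraries, lowest in Girk3-null replicate 1 and highest in wild type replicate 2. Of these, 9 had negative fold changes, 6 were lower at an unadjusted p under 0.05 and DESeq2 called 4. Their median was -1.19, and -0.79 without Girk3-null replicate 1. Erythroid markers, 10 of 10 negative, summed to 78.9 to 279 and 56.4 to 160 CPM, with the same lowest and highest libraries, and their median was -1.16 (-0.79 without that library). Skeletal muscle markers, 8 of 10 negative and all 8 at an unadjusted p under 0.05 with 4 DESeq2 calls, summed to 33.5 to 71.0 and 18.9 to 28.9 CPM, with a median of -1.45 (-1.89 without it). Macrophage markers (7 of 10 negative) summed to 230.3 to 306 and 233 to 321 CPM, neutrophil markers (6 of 8 negative) to 212 to 665 and 93.4 to 614 CPM, and stromal and tendon markers (6 of 8 negative) to 2835 to 4696 and 3146 to 3673 CPM. Their medians were -0.21, -0.36 and -0.26, and -0.26, -0.23 and -0.33 without it. At an unadjusted p under 0.05 in edgeR, 3 macrophage markers were lower and 0 higher. Among stromal and tendon markers 3 were lower and 1 higher, where 7.02% of all genes were lower and 7.49% higher. DESeq2 called 1 stromal and tendon marker, which was higher in Girk3-null libraries, and 0 macrophage or neutrophil markers. Chondrocyte markers, 13 of 14 positive, summed to 53561 to 89145 CPM in wild type and 82458 to 130710 CPM in Girk3-null libraries. Of these, 8 were higher at an unadjusted p under 0.05 and DESeq2 called 4, and their median was 0.60 (0.79 without Girk3-null replicate 1). In edgeR 0 markers of these lists passed an adjusted p of 0.05. No marker in these lists was at 0 in all libraries. In bulk RNA fewer cells of a type and less RNA per cell cannot be told apart, and the part of these cells in the levels of the 10 members was not tested.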

How the data were processed

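Polyadenylated RNA of 6 samples was sequenced after TruSeq preparation. The submitters' processing notes name the build mm10 and the tools bcl2fastq 2.19.0 and STAR 2.5.2b. How reads were counted, with which annotation and strand setting, is not given in the sources used. The deposited table holds raw counts per gene, per the file headers. Its RPKM values were divided by the authors by read total and gene length, as the labels' protocol states. The members and gene lists were chosen with earlier results of these data known.

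Counts were tested with edgeR 4.0.16 in R 4.3.3 (quasi-likelihood F-test on genotype, TMM factors, filterByExpr with min.count 10 and min.total.count 15). This left 17554 genes, over all of which p-values were adjusted (Benjamini-Hochberg). The fit was also run on simulated counts that held no sex or title number difference between libraries, so that run does not bear on such differences. Log2 CPM used a prior count of 2. DESeq2 1.42.0, limma 3.58.1 (voom, and the log2 of RPKM plus 0.1 or 1), other scalings, no filter, a title number covariate and leaving out each library were alternatives. Standard errors are the absolute log2 fold change over the square root of F. From each pathway list the 4 genes with the smallest p-values are named, except 1 that is not reported here, and likeness names 5 genes each. Mmp3, Mmp13 and Spp1 are named outside that rule, chosen after their values were seen. The series text calls the libraries biological replicates, and replicate numbers follow deposit order. Replicates differed beyond sampling noise (chi-square per degree of freedom 26.3 to 138). Pairs within one set of title numbers were at 26.3 (wild type replicates 1 and 2) and 29.8 (Girk3-null replicates 2 and 3). Pairs across the sets were at 83.6 and 115 in wild type. In Girk3-null they were at 128 and 138, where replicate 1 also differs in its sex-linked counts.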

Additional observations from a re-analysis of the deposited data

How the results depend on the processing

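No member passed an adjusted p of 0.05 under any of the 14 alternatives, so the count of members was 0 throughout, leaving out each library included. Junb and Jund kept a positive and Fosl1 and Atf3 a negative fold change in all 14. Fos and Egr1 kept their sign in 13, Jun in 13, Fosb and Nr4a1 in 12 and Fosl2 in 10. With the title number covariate Fos was -0.21, Fosb -0.39 and Egr1 -0.04. The fold change of Junb ran from 0.28 to 0.93 and that of Atf3 from -0.89 to -0.32, with adjusted p of 0.169 to 0.814 and 0.202 to 0.814. The count of all genes past the threshold was 1 in the test reported, 340 with DESeq2 and 53 with no filter on low counts. It was 0 with limma-voom, with library totals only, with the title number covariate and with either log2 RPKM scale. Leaving out 1 library gave 0 to 74 genes, with 74 without wild type replicate 3, 1 without wild type replicate 1 and 0 without each of the others. With DESeq2 1 AP-1 related zipper factor, Batf3, passed where edgeR called 0. With M21 gene lengths, an alternative chosen after seeing the data, the Fos to Jun family ratio was 1.19 in wild type and 4 of 10 members held their rank. No paired analysis was possible because the labels give no replicate numbers shared between the genotypes. The standard error of Fos was 0.39 with all libraries and 0.18 without Girk3-null replicate 1.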

Other observations

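Heat shock chaperones, another set of transcripts known to respond to cell handling, were mostly lower on average in Girk3-null libraries. Of 14 tested, 12 had negative fold changes, with a median of -0.31 (-0.23 without Girk3-null replicate 1), 4 lower and 1 higher at an unadjusted p under 0.05 (7.02% and 7.49% of all genes), and 0 past the adjusted threshold in edgeR or DESeq2. Hsph1, a co-chaperone, measured 156.3 ± 24.96 CPM in wild type and 112 ± 16.2 CPM in Girk3-null libraries (mean ± SD, n = 3 each). Its log2 fold change was -0.48 (edgeR adjusted p = 0.291). Dnaja1, Hsp90aa1 and Hspd1 were at -0.44, -0.66 and -0.34.

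The inducible Hsp70 genes Hspa1a and Hspa1b were looked at after their values were seen. Hspa1a measured 47.7, 55.1 and 39.5 CPM in wild type and 12.8, 21.3 and 44.7 CPM in Girk3-null replicates 1, 2 and 3. Hspa1b measured 51.7, 57.8 and 49.5 CPM in wild type and 18.4, 22.6 and 54.1 CPM in Girk3-null libraries. The 2 genes are near-identical copies, and their separate levels are uncertain. Girk3-null replicate 2, which had the highest Fos (199.8 CPM) and Egr1 (457 CPM) of the 6 libraries, thus had the second lowest level of both, and wild type replicate 2, low in Egr1 (159 CPM), had the highest. Atf3 ran with the Hsp70 genes, highest in wild type replicate 2 (112 CPM) and second lowest in Girk3-null replicate 2 (67.1 CPM). Girk3-null replicate 1 was lowest for both Hsp70 genes, for Atf3 (32.8 CPM) and for Fos (59.9 CPM). What these library differences come from was not tested.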
